A study of Homo sapiens with 6 samples.

Results

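The zinc finger cluster of 19q13.1 was taken as the 4 Mb of chromosome 19 at chr19:34300001-38300000 (GRCh38), and its members are the H3K9me3 peaks whose midpoint lies in it. The window held 184 of the 14087 peaks of the PURPL guide 1 list, 110 of the 11721 peaks of the PURPL guide 2 list and 193 of the 22627 peaks of the control list on chromosomes 1 to 22 and X. The lists were made from 3 CRISPR interference lines of BJ cells, a human foreskin fibroblast cell line, in which a targeted repressor silences the chosen gene. They carried guide 1 against PURPL, guide 2 against PURPL or a control guide. PURPL gives rise to a p53-induced long non-coding RNA. Each cell line gave 1 H3K9me3 library, called against 1 input library of the same cell line, so no value below has a replicate check and no test between cell lines was possible. The depth of the libraries is unknown. The repressor, the guide sequences and the number of clones behind each line were not stated in the labels, and the PURPL transcript was not analysed here.

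H3K9me3 is histone H3 trimethylated at lysine 9, a mark of repressed heterochromatin. Most zinc finger genes of chromosome 19 lie in tandem clusters that grew by duplication. Many encode KRAB zinc finger proteins, which bind DNA through an array of fingers and recruit the co-repressor TRIM28 and the methyltransferase SETDB1 to lay down this mark. The genes themselves are also known to carry it, mainly over the last exon that encodes the fingers, through the same system and the zinc finger protein ZNF274.

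The annotation bears the label of the window, since 34 of its 105 protein-coding genes were zinc finger genes by their symbol. These lay in a proximal group of 5 genes below 35.0 Mb and a distal group of 27 genes from 36.33 to 37.8 Mb. Another 2, ZNF565 and ZNF146, stood at the edge of the gene-dense middle. The middle, from 35.0 to 36.25 Mb, otherwise holds coding genes with other symbols. The limits of these groups were set after the values were seen.

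The promoters of the zinc finger genes are shown first because only 1 of them was under a peak in any list. Promoter sequences were taken from RefSeq (GRCh38.p14), which gave 52 promoters for 31 of the 34 genes, each reaching from 250 bases before a start site to 50 after it. The 9-letter word ACATTTCCC, searched on both strands, stood in the promoters of 13 of these 31 genes (41.9%), against 22 of 449 zinc finger genes elsewhere (4.90%) and 274 of all 27195 genes with a promoter in the table (1.01%). Of 61 other coding genes of the window, 1 held it. The word was chosen after the promoters were seen, as one of the most frequent of its length in them (others overlap it), so its share in the window describes the choice. ZNF829 and ZNF568 start next to each other, run in opposite directions and share 1 copy. This leaves 12 sites, all between 241 and 9 bases upstream of a start site. The longer word ACTACATTTCCC, which contains it, was found at 10 of the 12 sites and in 0.474% of all genes. The 12 sites follow, 5′ to 3′ in the direction in which the word reads, with the word in capitals.

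ZNF302, chr19:34677635-34677664, minus strand: cacggcgaaccACATTTCCCagaatcctcc
ZNF181, chr19:34734190-34734219, minus strand: acagccgatcgACATTTCCCagaatcatcc
ZNF146, chr19:36214963-36214992, minus strand: ggccttggactACATTTCCCttgaggcttt
ZNF260, chr19:36528374-36528403, plus strand: gagggtagactACATTTCCCagaaggttca
ZNF567, chr19:36687480-36687509, minus strand: ggccttggactACATTTCCCacaggcgccc
ZNF850, chr19:36772873-36772902, minus strand: ggctctggactACATTTCCCagaggatccc
ZNF790, chr19:36838429-36838458, minus strand: ggctccggactACATTTCCCagagtgcacc
ZNF829, chr19:36916081-36916110, minus strand: cgctctggactACATTTCCCagagggcctg
ZNF420, chr19:37078332-37078361, plus strand: agcgctggactACATTTCCCagaggcacgg
ZNF569, chr19:37467442-37467471, plus strand: tgcgccgaactACATTTCCCagaggccttc
ZNF540, chr19:37594811-37594840, minus strand: agttgtagactACATTTCCCgaaggccccc
ZNF573, chr19:37779597-37779626, minus strand: aggcttaaactACATTTCCCagagggcaac

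The letters around the word are also alike, and 9 of the 12 sites continue with ag. The word stood on the strand of the gene in 5 of the 13 genes and on the opposite strand in 8. The promoters were also rich in CG dinucleotides, with a median of 18.5 in the 250 bases before the start site (range 6 to 31), against 17 for the zinc finger promoters elsewhere and 11 for all promoters of the table. The word GGGCGG, searched on both strands and known as a site of SP1-type factors, was in the promoters of 17 of the 31 genes (54.8%), against 68.8% of zinc finger genes elsewhere, 64.1% of other coding genes and 48.4% of all genes. Such matches are letters and were not tested as binding sites.

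Length under H3K9me3 peaks in the window was 303 kb with guide 1 and 121 kb with guide 2, against 607 kb in the control. The guide lengths were thus 49.9% and 20.0% of the control length. This length ratio, a guide's length over the control's in the same place, compares peaks called separately and is not the share of control bases that stayed marked. Guide peaks covered 39.8% and 16.7% of the bases under control peaks, and 61.2 and 19.9 kb of guide peaks lay outside them. The number of peaks was 184 with guide 1 and 110 with guide 2, against 193 in the control, so guide 1 was nearer to the control in number than in length. Peaks of at least 5000 bp held 21% of the guide 1 length, against 63.4% of the control length. Median width was 1098 bp with guide 1 and 812 bp with guide 2, against 1183 bp in the control, and the widest peak measured 9.50 and 6.67 kb, against 34.1 kb. Scores, the authors' own value for each peak, were of middle rank in each list, with medians at percentiles 39.9 and 33.9 of the guide lists and 45.7 of the control list. When the 11721 highest-scoring peaks of every list were used, the order of the peak numbers turned round, with 143 and 110 peaks for the guides against 77 in the control. The length stayed shorter with both guides, at 259.7 and 121 kb against 452 kb. Tied scores at the cut were kept in chromosome order, so tied peaks on chromosome 19 were dropped before those of most other chromosomes, and these numbers depend on that.

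Most of the marked length lay in peaks that met a zinc finger gene, with 78.3% of it for guide 1 and 70.8% for guide 2, against 87.0% in the control. In no annotated gene lay 25 peaks with guide 1 (31.9 kb) and 14 with guide 2 (13.4 kb), against 26 in the control (28.3 kb). The gene-dense middle held 1 peak with guide 1 (2.25 kb) and 0 with guide 2, against 7 in the control (4.22 kb). The upper part of the distal group, from 36.33 to 36.9 Mb, had 137 kb under peaks with guide 1 and 60.8 kb with guide 2, against 249 kb in the control. The lower part, from 36.9 to 37.8 Mb, had 124 and 40.1 kb, against 297 kb. The length ratio was thus 55% and 24.4% in the upper part, and 41.9% and 13.5% in the lower part. In the proximal group 13846 and 1476 bp stood against 34272 bp, a ratio of 40.4% and 4.31%.

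**Figure D1:**
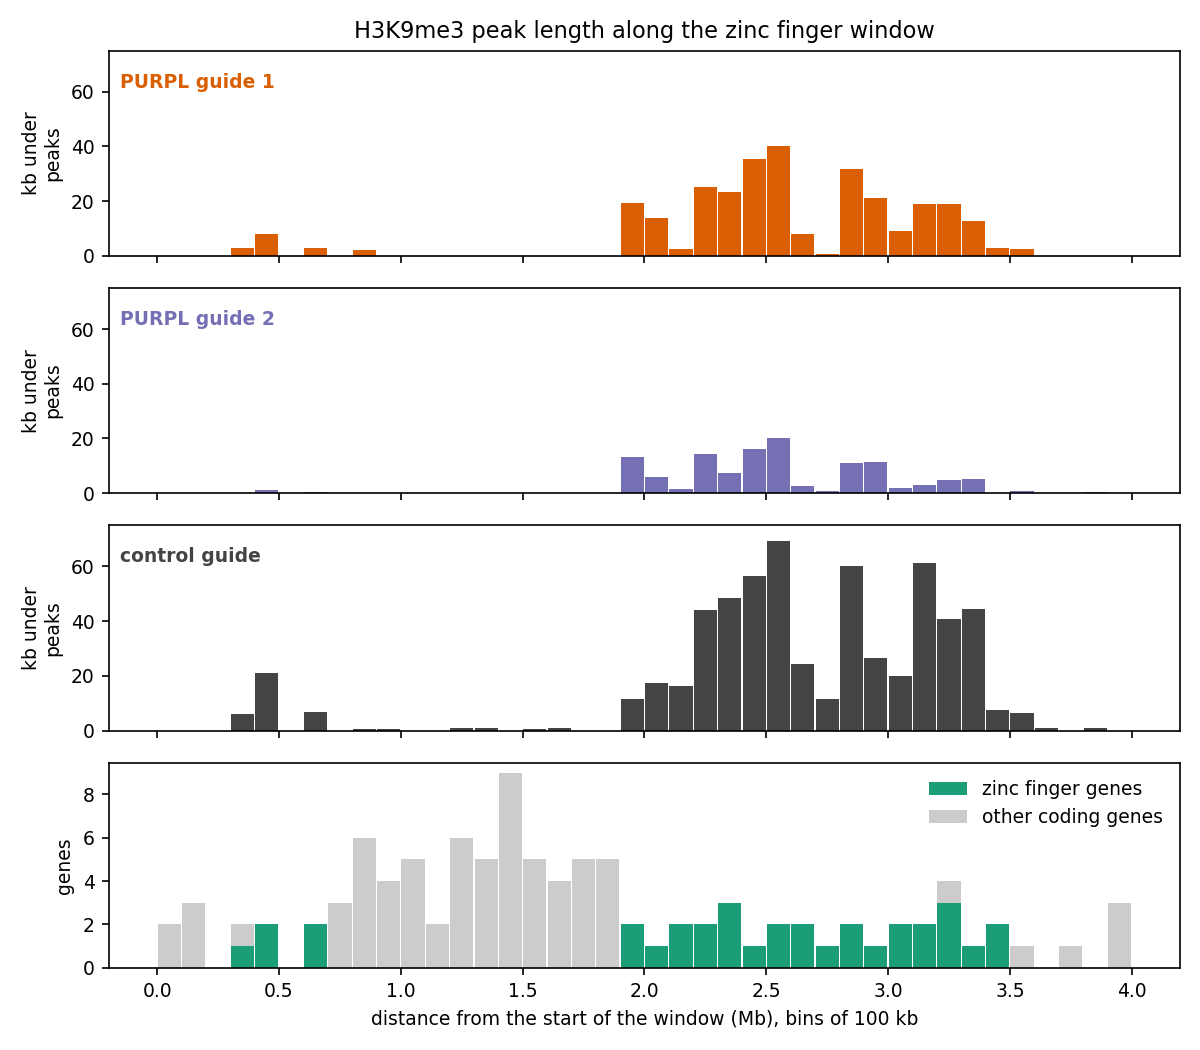
Length under H3K9me3 peaks (kb, y axes) in bins of 100 kb along the 4 Mb window (x axis, Mb from its start) for PURPL guide 1, PURPL guide 2 and the control guide, with the number of zinc finger and other coding genes per bin in the lowest panel. Of 40 bins, 12 held no peak in any list, and of the 28 with control peaks, 26 were shorter with both guides.

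Zinc finger genes were marked far more often than other genes in all 3 lists. Genes with at least 1 bp of peak in their body are called marked. Among the 34 members, 31 were marked with guide 1 and 27 with guide 2, against 32 in the control. The background among all 19974 coding genes was 6.55% with guide 1, 3.73% with guide 2 and 13.1% in the control. Of the 71 other coding genes of the window, 2 were marked with guide 1, 2 with guide 2 and 4 in the control. Peaks covered 17.9% of the joint length of the zinc finger genes with guide 1 and 6.72% with guide 2, against 37.4% in the control. At least 50% of the body was covered in 1 of the 34 genes with guide 1 and in 0 with guide 2, against 16 in the control. The same count was not made over all coding genes, so it cannot be read as particular to the window.

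Of the 32 control-marked zinc finger genes, 31 had shorter coverage in both guides, where 92.6% of all control-marked coding genes did. Coverage above the control was found in 1 of the 32 with guide 1 (background 5.63%) and in 0 with guide 2 (background 1.99%). The length ratio was under 50% in 17 of the 32 with guide 1 (background 81.7%) and in 31 of the 32 with guide 2 (background 93.8%). All peaks were absent in both guides from 1 of the 32 (background 52.5%). The median length ratio per gene was 49.5% with guide 1 and 11.6% with guide 2, and over all control-marked coding genes both medians were 0. Genes with long coverage have more to lose before they reach 0, and coverage was not matched here. The bodies of neighbouring members overlap in places, so the genes are not separate observations.

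**Figure D2:**
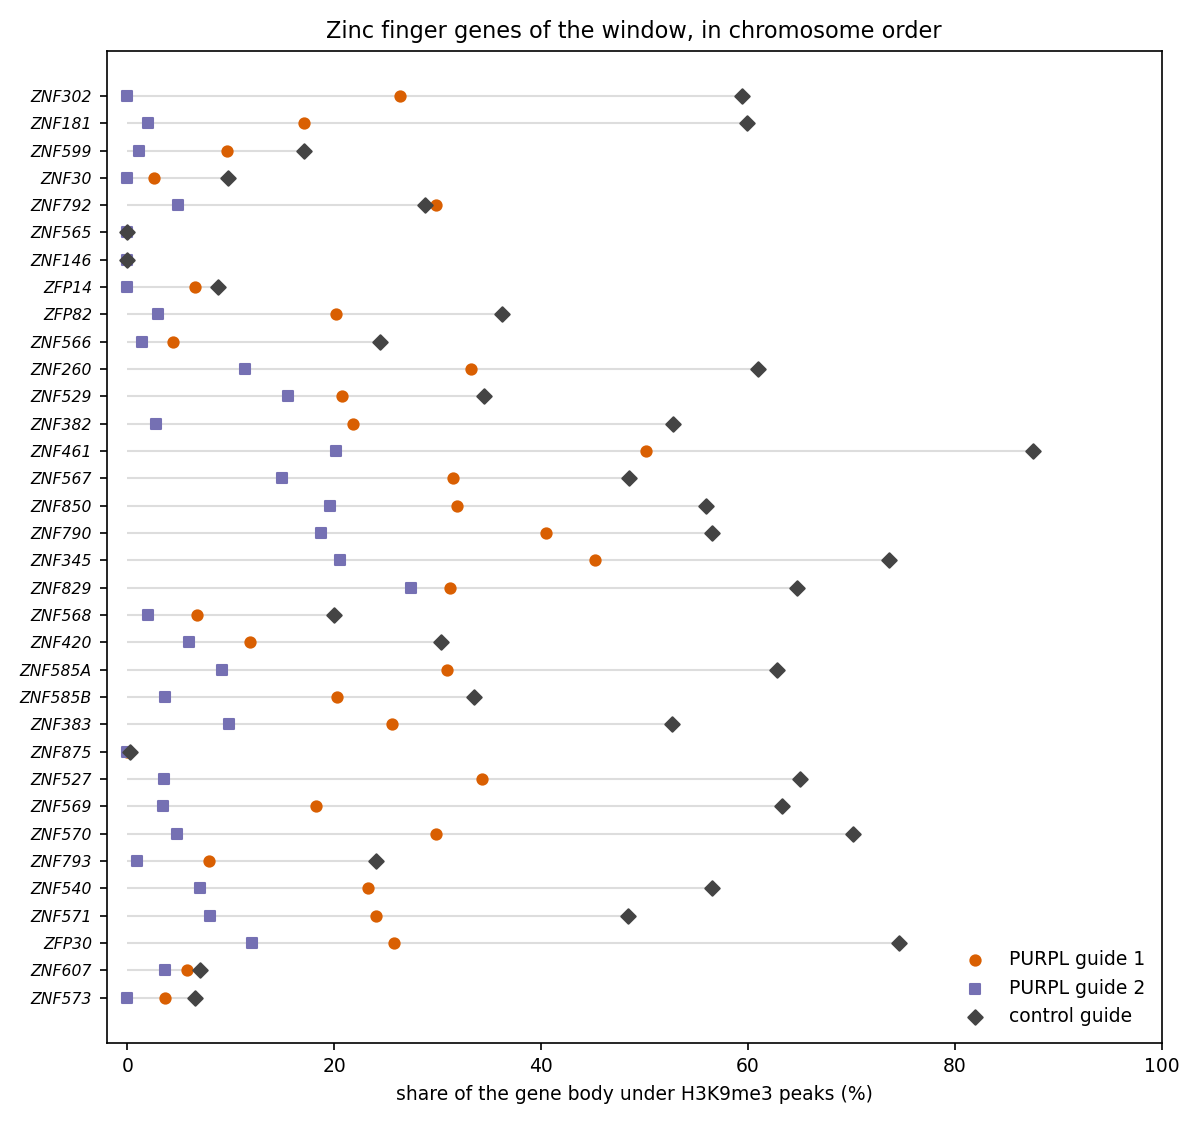
Share of the gene body under H3K9me3 peaks (x axis, %) for the 34 zinc finger genes of the window in chromosome order (y axis), with 1 point per list and a grey line from 0 to the control value. The control point lies farthest right for 31 genes, ZNF792 is the exception among marked genes, and ZNF565 and ZNF146 stand at 0 in all lists.

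In the control, the longest coverage was found at genes of the lower distal part, while in both guides it was found at genes of the upper part, ZNF345 with guide 1 and ZNF529 with guide 2. ZNF420, which encodes a KRAB zinc finger repressor of p53-driven apoptosis also called Apak, had 14.5 kb under peaks with guide 1 and 7.28 kb with guide 2, against 37.1 kb in the control. ZNF569, described as a repressor of MAP kinase signalling, had 10.6 and 2.03 kb, against 36.8 kb. Length ratios were 39.2% and 19.6% at ZNF420 and 28.9% and 5.51% at ZNF569. ZNF540, also described as a repressor of MAP kinase signalling, had 14.6 and 4.43 kb, against 35.5 kb. ZFP30, whose mouse homologue has been tied to neutrophil recruitment in the lung, had 6.51 and 3.04 kb, against 18.8 kb. ZNF585A had 8.40 and 2.49 kb, against 17.1 kb. It has a close copy next to it, ZNF585B, named after its values were seen, with 5.88 and 1.05 kb against 9.72 kb, and reads may not be told apart between such copies. ZNF829, at the border to the upper part, had 8.80 and 7.74 kb, against 18.2 kb.

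Genes of the upper distal part had higher length ratios, with a median of 57.2% in guide 1 and 23% in guide 2 over 11 genes, against 45.4% and 11.6% over the 16 genes of the lower part. ZNF345 had 19.4 kb with guide 1 and 8.80 kb with guide 2, against 31.5 kb in the control. ZNF567 had 19.1 and 9.07 kb, against 29.4 kb. ZNF461, a repressor first described in rat as a gonadotropin-inducible gene, had 15.2 and 6.09 kb, against 26.5 kb. Its body was the most densely covered of the 34 in the control, at 87.6%, and in guide 1, at 50.1%, with 20.1% in guide 2. ZNF529 had 12.8 and 9.61 kb, against 21.3 kb, and its length ratio of 45.0% with guide 2 was second to the 52.4% of ZNF607, a gene with 1.64 kb in the control that was named after its values were seen. ZNF790 had 13.5 and 6.25 kb, against 18.8 kb. ZNF850 had 9.35 and 5.74 kb, against 16.4 kb.

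A few members went their own way. ZNF792 had 2347 bp with guide 1, slightly above the 2264 bp of the control, and 383 bp with guide 2. ZNF875, formerly HKR1, had 0 bp with both guides and 128 bp in the control, although it lies inside the distal group. ZNF302, ZNF30, ZFP14 and ZNF573, named after their values were seen, had between 0.549 and 2.92 kb with guide 1 and 0 with guide 2, against 2.08 to 6.19 kb in the control. ZNF146, whose protein consists of zinc fingers without a KRAB domain, and the overlapping ZNF565 had 0 in all 3 lists. Across the 32 control-marked genes, gene length and control coverage had a Spearman rho of 0.44, and coverage in guide 1 and guide 2 a rho of 0.90. These values describe genes of the same libraries that share length and position.

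Few other coding genes of the window were marked. LOC124904708, an uncharacterised coding locus on the minus strand that overlaps ZNF793 and starts next to ZNF540, carried 3849 bp in guide 1 and 346 bp in guide 2, against 12199 bp in the control. FXYD5, a regulator of the sodium pump and of cell adhesion, carried 2250 bp in guide 1 and 0 in guide 2, against 419 bp in the control. SIPA1L3, a GTPase-activating protein for Rap, had 0 and 488 bp, against 1795 bp. NPHS1, which encodes nephrin of the kidney filter, had 0 in both guides and 490 bp in the control. Several other groups of the window had 0 bp in all 3 lists. They were the 3 epidermal genes (KRTDAP, DMKN and SBSN), the 3 free fatty acid receptor genes and the 4 immune cell genes (CD22, HCST, TYROBP and NFKBID). The 3 genes of oxidative phosphorylation (COX6B1, COX7A1 and SDHAF1) and a mixed group of 5 genes (KMT2B, PROSER3, LIN37, DPF1 and ZBTB32) also had 0 bp. At the backgrounds of 6.55%, 3.73% and 13.1% of coding genes marked with guide 1, guide 2 and the control, 0 in groups this small is no result about them. Of the 4 FXYD genes, only FXYD5 was marked, in guide 1 and the control.

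Most wide control domains held shorter guide peaks, which covered part of their length. Peaks of at least 5000 bp numbered 10 with guide 1 (21% of its length in the window) and 2 with guide 2 (10.3%), against 31 in the control (63.4%). Inside these 31 control peaks lay all or part of 86 guide 1 peaks and 65 guide 2 peaks, over 48.8% and 19.9% of the length. At least 2 guide 1 peaks fell in 22 of them and at least 2 guide 2 peaks in 14, while 1 held no guide 1 peak and 5 no guide 2 peak. The control peak of 34.1 kb over ZNF567, the widest of the window at chr19:36705416-36739477, contained 7 guide 1 peaks with 24.6 kb and 6 guide 2 peaks with 8.43 kb. The next, 32.0 kb over ZNF790 and ZNF790-AS1 at chr19:36804307-36836270, contained 7 with 18.7 kb and 8 with 7.48 kb. The third, 31.2 kb over ZNF382 and ZNF461 at chr19:36625622-36656803, contained 6 with 19.6 kb and 6 with 5.74 kb. A wide peak offers more bases to overlap, and 96.8% of these 31 were hit by guide 1 and 83.9% by guide 2. Of the 162 narrower control peaks, 39.5% were hit by guide 1 (95% Wilson interval 32.3 to 47.2) and 22.2% by guide 2 (16.5 to 29.2).

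**Figure D3:**
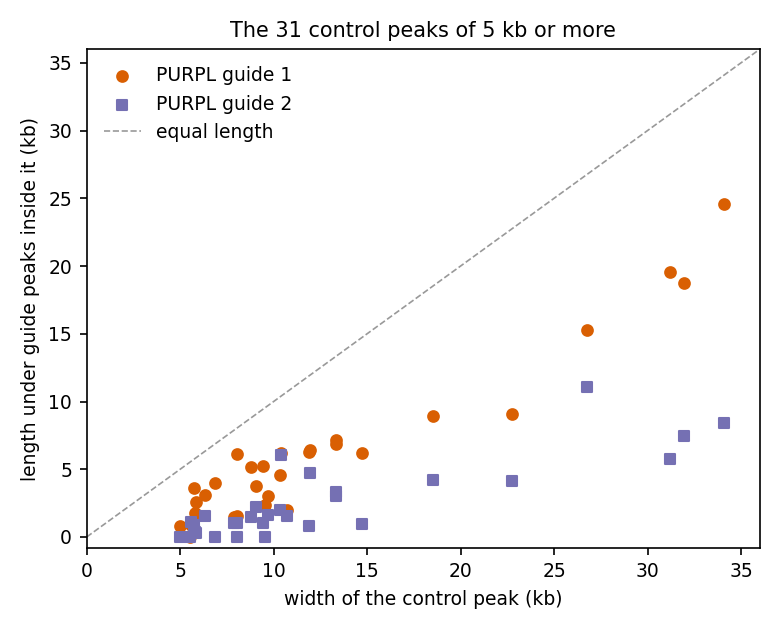
Length under guide peaks inside each of the 31 control peaks of at least 5000 bp (y axis, kb) against the width of that control peak (x axis, kb), with circles for PURPL guide 1 and squares for PURPL guide 2. All points lie below the dashed line of equal length, and the highest share covered is 75.7% with guide 1 and 58.1% with guide 2.

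Most guide peaks of the window lay on control peaks. This held for 152 of the 184 guide 1 peaks (82.6%, 95% Wilson interval 76.5 to 87.4, background 79.2%) and 99 of the 110 guide 2 peaks (90.0%, 83.0 to 94.3, background 82.9%). Seen from the control, 48.7% of the 193 peaks overlapped a guide 1 peak (41.7 to 55.7, background 42.8%) and 32.1% a guide 2 peak (25.9 to 39.0, background 36.2%), so both intervals held the background. By bases, 66.2 kb were under peaks in all 3 lists, 330.2 kb in the control alone and 8.04 kb in both guides without the control. Guide 2 peaks were met by 37.0% of the guide 1 peaks (30.3 to 44.1), against 55.2% in the rest of chromosomes 1 to 22 and X. Guide 1 peaks were met by 71.8% of the guide 2 peaks (62.8 to 79.4), against 68.6% there. The intervals cover counting error only.

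The guide peaks without a control peak were short, and most lay close to control peaks, a closeness that was not counted outside the window. There were 32 with guide 1, of which 29 lay within 5000 bp of a control peak, and 11 with guide 2, all 11 within that distance. The highest-scoring one, and the highest-scoring guide 1 peak of the window, was a peak of 381 bp at chr19:36442235-36442615, beyond the annotated end of ZNF566 and in no annotated gene, at percentile 87.8 of its list. A site at chr19:37277545-37278156 in guide 1 and chr19:37277545-37277830 in guide 2 also lay in no annotated gene, at percentiles 74.4 and 78.7. Of the control peaks that neither guide overlapped, the 3 highest-scoring lay in ZNF793-AS1 (chr19:37497794-37499069), in ZNF540 (chr19:37604448-37606622) and outside annotated genes (chr19:35223078-35223496), at percentiles 77.2, 75.9 and 72.7 of the control list.

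Along the zinc finger genes, peaks lay toward the end of the gene, and by summed length the share there was higher with the guides. For the 31 members with a strand in the promoter table, the last 5 of 10 equal parts of the body held 80.2% of the length under peaks with guide 1 and 87.0% with guide 2, against 69.8% in the control. The length ratio with guide 1 was 47.2% in the first 2 parts, 43.0% in the middle 6 and 57.0% in the last 2. With guide 2 it was 14.4%, 15.2% and 25.1%. By gene, the last 5 parts held the longer coverage in 24 of the 28 members marked with guide 1, 23 of 26 with guide 2 and 26 of 29 in the control, so by number of genes the guides were not above the control. In marked zinc finger genes outside the window these counts were 190 of 225 and 135 of 171, against 228 of 267 in the control. Among other marked coding genes they were 396 of 813 and 211 of 424, against 948 of 1846. By summed length, zinc finger genes outside the window had 71.2% and 72.2% in the last 5 parts, against 68.1% in the control. Other coding genes had 49.9% and 53.2%, against 46.5%. In the 449 zinc finger genes elsewhere the guides thus stood nearer to their control than in the window, a difference that was not tested.

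**Figure D4:**
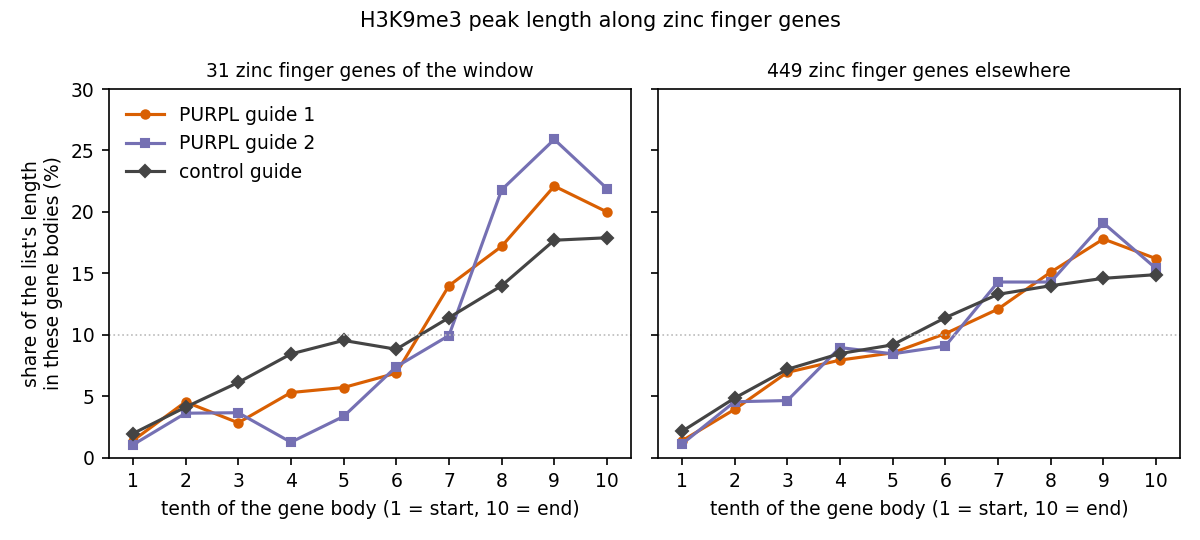
Share of the length under peaks (y axis, % of each list's length in these gene bodies) in each of 10 equal parts of the gene body from start to end (x axis), for the 31 zinc finger genes of the window on the left and the 449 elsewhere on the right. Lines stand for PURPL guide 1, PURPL guide 2 and the control guide, and the dotted line marks an even spread of 10%; in the window part 9 holds 22.1% and 25.9% with the guides, against 17.7% in the control.

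The start sites of the zinc finger genes were free of control peaks. Of the 52 promoters, 1 was under a peak with guide 1 (background 0.0772% of all 34961 promoters) and 0 with guide 2 (background 0.0372%), against 0 in the control (background 0.140%). The median distance from a start site to the nearest peak was 6.59 kb with guide 1 and 12.6 kb with guide 2, against 5.38 kb in the control. No control peak came closer than 517 bp to a start site, and no guide 2 peak closer than 1847 bp. Promoters under a peak are rare in all 3 lists, so 0 of 52 is no mark of the window. At ZNF461, where control peaks covered 87.6% of the body, the nearest control peak lay 1647 bp from the start site.

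The exception was a place where start sites of ZNF540, ZNF571-AS1 and LOC124904708 lie close together. A guide 1 peak of 3.21 kb at chr19:37549680-37552893 covered all 300 bases of their promoter windows. Neither guide 2 nor the control had a peak over the ZNF540 window. Control peaks overlapped both ends of the guide 1 peak, at chr19:37547352-37550857, over the other start site of ZNF571-AS1, and at chr19:37551943-37570446. The 250 bases before the ZNF540 start site (GRCh38.p14, 5′ to 3′ on the strand of the gene) are shown because they were the only zinc finger promoter of the window under a peak, with CG in capitals. They hold 25 CG dinucleotides and 69.6% G and C.

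ZNF540, chr19:37551124-37551373, plus strand: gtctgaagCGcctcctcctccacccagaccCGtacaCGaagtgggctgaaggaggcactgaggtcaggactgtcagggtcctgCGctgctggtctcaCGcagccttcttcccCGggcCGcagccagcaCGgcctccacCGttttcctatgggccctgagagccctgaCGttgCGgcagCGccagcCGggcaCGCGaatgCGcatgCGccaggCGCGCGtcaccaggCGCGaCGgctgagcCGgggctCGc

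With peaks as called, a non-coding gene had more coverage with both guides than in the control. CYKILR (gene ID 100134317, chr19:36269084-36321291), a long non-coding RNA gene next to ZFP14 and at the proximal edge of the distal zinc finger group, had 23 kb under peaks with guide 1 and 17.8 kb with guide 2, against 14.9 kb in the control. It was named after its values were seen. Among 1505 control-marked non-coding genes and pseudogenes of the genome, 10 were longer in both guides (background 0.664%), or 25 of all 39124 with those unmarked in the control (0.0639%). No coding gene of the window was longer in both guides (background 0.195%). The other 20 marked non-coding genes and pseudogenes of the window were shorter in at least 1 guide. Without the peaks in CYKILR the length ratio of the window was 47.2% with guide 1 and 17.5% with guide 2. With only scores at or above the pooled median, CYKILR had 15.7 and 14.2 kb, against 6.92 kb. With peaks within 5000 bp joined, each list had 1 region here, of 39.5 kb with guide 1 and 38.7 kb with guide 2, against 38.7 kb in the control. Joining filled every gap within the row, so these lengths are the spans of the rows and cannot compare coverage. With the 11721 highest-scoring peaks of each list, both guide values were unchanged and the control had 6.92 kb. Tied scores at that cut were kept in chromosome order. The higher coverage with the guides thus held under the score limit and with lists of equal size, but it has no replicate check.

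The peaks over CYKILR stood in a row. There were 11 with guide 1 and 14 with guide 2, against 14 in the control, and in each list they spanned 38.7 to 39.5 kb from the first start site. The median step from midpoint to midpoint was 3701 bp with guide 1 and 2652 bp with guide 2, against 2551 bp in the control. Of the steps, 4 of 10 with guide 1, 10 of 13 with guide 2 and 11 of 13 in the control measured 2000 to 3500 bp, and the longest step was 6350.5 bp with guide 1 and 4132 bp with guide 2, against 5277 bp in the control. The widest peak measured 5157 bp with guide 1 and 3531 bp with guide 2, against 2353 bp in the control, while the medians were 1270 and 983 bp, against 998 bp. All 14 control peaks were overlapped in both guides. The highest-scoring control peak of the whole window, at chr19:36272777-36273617, was one of them.

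**Figure D5:**
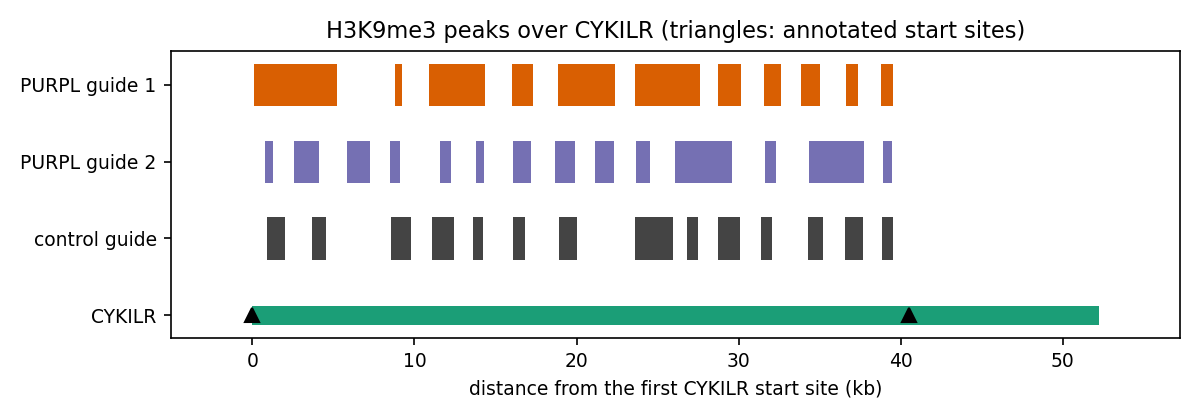
H3K9me3 peaks over CYKILR as bars (x axis, kb from the first start site) for PURPL guide 1, PURPL guide 2 and the control guide, with the gene as a green bar and its 2 annotated start sites as triangles. The peaks of all lists end about where the other start site lies, 40.5 kb from the first.

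The 2 annotated start sites of CYKILR frame this row of peaks and have nearly the same sequence. Over 266 aligned columns of their promoter windows 258 were identical (97.0%), with 7 mismatches and 1 gap. Both are shown 5′ to 3′ on the strand of the gene (GRCh38.p14) because they frame the row. The 250 bases before each start site are given, with CG in capitals, and hold 26 and 32 CG dinucleotides. Neither promoter window lay under a peak in any list, so the likeness gives no information on reads within the row.

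CYKILR, chr19:36268834-36269083, plus strand: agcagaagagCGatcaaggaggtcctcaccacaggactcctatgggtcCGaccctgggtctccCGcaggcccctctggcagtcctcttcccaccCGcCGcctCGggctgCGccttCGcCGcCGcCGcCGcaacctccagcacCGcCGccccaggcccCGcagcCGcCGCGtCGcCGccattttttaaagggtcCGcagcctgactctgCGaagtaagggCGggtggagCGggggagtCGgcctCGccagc
CYKILR, chr19:36309360-36309609, plus strand: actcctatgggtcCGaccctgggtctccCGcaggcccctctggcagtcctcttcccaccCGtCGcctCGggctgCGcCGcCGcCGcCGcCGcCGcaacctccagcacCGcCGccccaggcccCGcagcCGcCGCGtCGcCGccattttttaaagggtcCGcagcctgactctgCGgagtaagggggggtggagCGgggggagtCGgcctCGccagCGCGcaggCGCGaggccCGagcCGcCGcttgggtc

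Whether reads of the stretch map to more than 1 place was not tested.

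Antisense genes next to zinc finger genes differed in their length ratios. They are named, as is ZNF781, after their values were seen. ZNF790-AS1 had 15.1 kb under peaks with guide 1 and 6.16 kb with guide 2, against 25.4 kb in the control. ZNF571-AS1 had 15.2 and 4.43 kb, against 28.4 kb. ZNF529-AS1 and ZNF793-AS1 were longer than the control with guide 1, at 1091 against 761 bp and 1695 against 1276 bp, and shorter with guide 2, at 279 and 0 bp. ZNF790-AS1, ZNF571-AS1 and ZNF529-AS1 overlap zinc finger genes, and peaks have no strand, so a peak cannot be given to one of them. ZNF529-AS1 lies wholly inside ZNF529, which was itself shorter with both guides, at 12.8 and 9.61 kb against 21.3 kb. ZNF793-AS1 overlaps ZNF793 only in a short stretch at the start of that gene. Its 1276 bp in the control were a single peak that neither guide overlapped, so its guide 1 bases lay at other positions. The transcribed pseudogene ZNF781 had 0.243 and 1.45 kb, against 7.09 kb, and so was longer with guide 2 than with guide 1. In all, 12 of the 85 non-coding genes and pseudogenes of the window were marked with guide 1 (background 1.64%) and 7 with guide 2 (background 0.803%), against 21 in the control (background 3.85%).

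Other zinc finger clusters of chromosome 19 had similar length ratios, with 1 exception. In the window the ratio was 49.9% with guide 1 and 20.0% with guide 2. The cluster of 19p13.2 had 48.2% and 23.3%, and that of distal 19q13 had 48.1% and 16.5%. The cluster of 19p12 had 34.8% and 8.51%. The rest of chromosomes 1 to 22 and X had 52.5% with guide 1 and 40.7% with guide 2. Summed over gene bodies, the zinc finger genes of the window had 48.4% and 18.4%, those outside it 48.6% and 19.2%, and other coding genes outside it 25.3% and 9.67%. Nothing in these shares sets the window apart from the 19p13.2 and distal 19q13 clusters. The number of guide 1 peaks in the window was 95.3% of the number of control peaks, against 60.6% to 90.1% in the other clusters and 62.0% in the rest of chromosomes 1 to 22 and X. For guide 2 it was 57.0%, against 21.1% to 63.4% and 51.8%. These are ratios of counts, and they turned round in the window with lists of equal size, where ties were cut in chromosome order. These differences have no replicate check and were not tested.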

How the data were processed

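The authors deposited 1 H3K9me3 peak list per cell line, which gives positions and a score; the deposited score is a whole number from 10 upwards, on a scale that no label or header names. The submitters' processing notes name MACS2 2.2.9.1, deepTools 3.5.1, Bowtie2 2.4.2 and GATK, and the builds hg38 and GRCh38.p13. Settings and read numbers are not given there, and input libraries had no list of their own here. Guide names within the peak names differ from those in the labels, so lists were assigned by file name and sample title. Peaks were called per sample, so lists differ in what each library could yield; widths and numbers depend on that, and no value is corrected for depth.

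Peaks on chromosomes 1 to 22 and X were used. Gene spans came from RefSeq (GRCh38.p14, same chromosome coordinates) and strand, start sites and sequences from its promoter table. On chromosome 19, 167 of 167 overlapping promoter pairs on opposite strands were reverse complements of each other. Zinc finger genes are coding genes whose symbol starts with ZNF, ZFP, ZSCAN, ZKSCAN, ZIM or ZIK. Genes with other symbols, such as ZBTB32 and OVOL3, were counted among the other coding genes whatever protein they encode. Overlap meant at least 1 bp. Named genes are the 12 zinc finger genes with the longest control coverage, any longer with a guide, any at 0 in both guides and up to 8 other coding genes with the longest coverage; other names are said to be chosen later. Named peaks are the widest and highest-scoring of each list and the highest-scoring without a counterpart. Members, lists and tests were chosen with earlier results of these data known. No protein sequences or genome were used, so fingers per protein and sequences of peaks were not analysed. The scripts ran under Python 3.11.15 with pandas 2.3.3, numpy 2.4.6, Biopython 1.88, scipy 1.17.1 and matplotlib 3.10.9, and overlap and coverage functions were tested on simulated lists. Wilson intervals are at 95%.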

Additional observations from a re-analysis of the deposited data

Results flagged for a closer look

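With 1 library per cell line, outliers within a group could not be looked for. In 4 of the 57 control-marked coding and non-coding genes of the window (7.02%, against 5.08% of 4115 over chromosomes 1 to 22 and X) the guides went opposite ways from the control, longer with guide 1 and shorter with guide 2, a difference that was not tested. ZNF792 had 2347 bp under peaks with guide 1 and 383 bp with guide 2, against 2264 bp in the control. FXYD5 had 2250 and 0 bp, against 419 bp. The antisense gene ZNF529-AS1, which lies inside ZNF529, had 1091 and 279 bp, against 761 bp, while ZNF529 as a whole was shorter with both guides. The antisense gene ZNF793-AS1 had 1695 and 0 bp, against 1276 bp, with the guide 1 bases at other positions than the control peak.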

How the results depend on the processing

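No paired analysis was possible because each group has 1 library. Of 104 values recomputed under alternatives, 68 stayed close to the main value (within 1.5 times for counts and lengths, within the Wilson interval for shares) and 36 moved. For length ratios this interval treated the ratio as a share of the 193 control peaks or the 32 control-marked genes. A length ratio is not such a share, so for these values close is a loose label and no measure of stability. In every setting the length under peaks stayed shorter with both guides than in the control. Keeping scores of 22 or more, the pooled median, the window held 70 guide 1, 40 guide 2 and 77 control peaks, and the guides 152797 and 49029 bp, or 33.8% and 10.8% of the control length. Guide 1 then overlapped 41.6% of control peaks, and control peaks overlapped 71.4% and 67.5% of guide peaks. Guide 2 marked 16 zinc finger genes and had 7.92% of their control coverage. Guide 1 marked 21, against 31 in the main setting, and had 31.9%, against 48.4%, changes that still counted as close. Genes with a length ratio under 50% numbered 20 with guide 1, against 17, and the control marked 27, against 32. With the 11721 highest-scoring peaks of each list, 77 control peaks were left, and the guides had 57.5% and 26.9% of the length. Then 62.3% and 54.5% of control peaks were overlapped and 65.7% and 70.9% of guide peaks. Tied scores at this cut were kept in chromosome order, which drops ties on chromosome 19 early. In the control the window was left with the same 77 peaks and 452 kb as with scores of 22 or more. With peaks within 5000 bp joined, 62, 48 and 56 regions were left, of 534061 and 247625 bp for the guides (62.5% and 29.0% of the control length), and 62.5% and 46.4% of control regions were overlapped. Overlap of at least 50% of the counted peak gave 16.1% and 9.84% of control peaks and 69.0% and 82.7% of guide peaks, and of both peaks 8.29% and 6.74%, and 8.7% and 11.8%. The cause of each move was not tested. Position along the genes, recomputed under the score limit after the data were seen, put 90.4% and 93.6% of the length in the last 5 of 10 parts with the guides, against 77.3% in the control. With the 11721 highest-scoring peaks the values were 86.6% and 87.0%, against 77.3%.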
